A study of Mus musculus with 12 samples.

Results

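The growth hormone and IGF-1 axis was followed through 10 genes, Ghr, Jak2, Stat5a, Stat5b, Socs2, Igf1, Igfals, Igfbp1, Igfbp2 and Igfbp4, taken by symbol from a table of 23997 genes measured in aged mouse liver. The rule that picks them uses only gene names, although the set was proposed with earlier results of these data known. Liver RNA came from wild type C57BL/6 mice, which the study describes as male. There were 4 groups of 3 mice: a normal chow diet (NCD), the same chow with curcumin (NCD+CUR), a high-fat high-sugar diet (HFHSD), and HFHSD with curcumin (HFHSD+CUR). Curcumin, a plant polyphenol, made up 0.4% of the diet, and the diets were given for 15 weeks. The labels give an age of 99 weeks for 10 mice and of 107 weeks for replicate 3 of NCD and of NCD+CUR, while the text of the series gives younger ages. RNA was taken from 1 lobe, the left lateral lobe, and each library stands for a single mouse. Values are FPKM, fragments scaled by transcript length and library size. They allow levels to be compared between genes per length, but the fragments behind each value, and with them its counting error, are unknown. In whole-tissue RNA, fewer cells of a type and less RNA per cell cannot be told apart.

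Growth hormone from the pituitary binds its receptor, encoded by Ghr, on hepatocytes. The receptor carries the tyrosine kinase encoded by Jak2, which phosphorylates the transcription factors encoded by Stat5a and Stat5b. STAT5 then drives the hepatic genes for IGF-1 (Igf1) and for the acid-labile subunit (Igfals), which holds IGF-1 in a long-lived complex in the blood, and it also drives Socs2 and Cish, whose products damp the receptor's signal. The binding proteins encoded by Igfbp1, Igfbp2 and Igfbp4 carry IGF-1 outside that complex. Hepatic Igfbp1 is known for its repression by insulin, acting through forkhead factors.

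Promoter windows of 300 bases around annotated gene starts were read from RefSeq annotation on GRCm38.p6 for 9 of the 10 genes and for Cish. They were searched on both strands for TTCNNNGAA, the STAT5 consensus, and for the forkhead sequences TGTTTAC and TGTTTTG. The windows with a match are shown because these are the sequences through which STAT5 and forkhead factors are known to act. Capitals mark the matches, and each window is given in the direction of its gene, with positions counted from 1 at the annotated start. Igfals lies on the plus strand of chromosome 17, and 2 of its 3 windows held a match, at chr17:24877594-24877893 and at chr17:24877981-24878280. Igfbp1 lies on the plus strand at chr11:7197537-7197836, and Cish on the plus strand at chr9:107296409-107296708.
Igfals, upstream window: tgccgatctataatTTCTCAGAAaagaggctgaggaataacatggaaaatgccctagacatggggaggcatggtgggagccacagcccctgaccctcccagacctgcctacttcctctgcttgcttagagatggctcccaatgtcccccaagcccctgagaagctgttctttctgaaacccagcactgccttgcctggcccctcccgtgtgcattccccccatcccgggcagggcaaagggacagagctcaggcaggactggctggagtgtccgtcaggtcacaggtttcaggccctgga
Igfals, downstream window: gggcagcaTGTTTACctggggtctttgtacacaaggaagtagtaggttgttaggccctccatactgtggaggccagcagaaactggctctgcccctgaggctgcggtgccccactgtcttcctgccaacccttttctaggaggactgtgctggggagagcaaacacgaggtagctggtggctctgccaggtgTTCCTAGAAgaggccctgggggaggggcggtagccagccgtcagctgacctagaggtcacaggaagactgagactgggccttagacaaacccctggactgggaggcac
Igfbp1: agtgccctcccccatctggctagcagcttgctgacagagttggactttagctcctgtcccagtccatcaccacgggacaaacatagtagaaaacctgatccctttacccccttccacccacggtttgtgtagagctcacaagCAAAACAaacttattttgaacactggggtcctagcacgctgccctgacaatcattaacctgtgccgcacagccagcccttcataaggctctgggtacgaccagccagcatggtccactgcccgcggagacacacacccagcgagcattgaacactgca
Cish: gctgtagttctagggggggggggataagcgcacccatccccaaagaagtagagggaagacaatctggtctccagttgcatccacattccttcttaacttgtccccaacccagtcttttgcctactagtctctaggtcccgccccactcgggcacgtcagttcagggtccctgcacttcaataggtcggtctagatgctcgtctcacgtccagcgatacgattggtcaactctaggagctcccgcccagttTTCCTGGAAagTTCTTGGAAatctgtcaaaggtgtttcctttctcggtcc
The upstream Igfals window held TTCNNNGAA at position -236. The downstream one held it at position -58 and held TGTTTAC at position -242. Igfbp1 held TGTTTTG on the minus strand, which reads CAAAACA here, at position -108. Cish held TTCNNNGAA at positions 1 and 12. None of these sequences was found in the windows of Igf1, Igfbp2, Igfbp4, Ghr, Jak2, Stat5a or Stat5b, which says nothing of sites farther away. Over all 32851 promoter windows, 8.3% held TTCNNNGAA, 3.65% held TGTTTAC and 6.28% held TGTTTTG.

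All 10 genes had a mean of at least 1 FPKM and were tested among 10545 genes. Igfbp4 was the most abundant, with a mean of 911 FPKM over the 12 livers and a higher level than 99.1% of the tested genes. It was followed by Igfbp2 at 446 FPKM, Ghr at 184 FPKM and Igf1 at 173 FPKM. Igfals came next at 51.8 FPKM, then Igfbp1 at 15.3 FPKM, Socs2 at 11.4 FPKM, Stat5b at 8.55 FPKM, Stat5a at 3.51 FPKM and Jak2 at 2.71 FPKM. The 5 most abundant genes thus encode the receptor and secreted products, while Igfbp1, also secreted, lay near Socs2. Along this order Igfbp4, Igfbp2, Igf1, Igfals and Stat5b each exceeded the next gene in 12 of 12 mice. Ghr exceeded Igf1 in only 8 of 12 mice, Igfbp1 exceeded Socs2 in 6 of 12, and Socs2 exceeded Stat5b in 7 of 12. Stat5a exceeded Jak2 in 11 of 12 mice.

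The genes differed in how much they varied between mice on the same diet. Igfbp1 ranged 7.78-fold over the 12 mice and Socs2 ranged 4.86-fold. On the log2 scale, their SD within groups was larger than that of 99.2% and 98.3% of the tested genes. Jak2 was among the least variable genes, since only 2.01% had a smaller SD within groups, and for Stat5b the share was 5.86%. A difference of a given size was therefore far easier to detect for Jak2 and Stat5b than for Igfbp1 and Socs2. The plot of values by mouse shows this contrast.

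**Figure D1:**
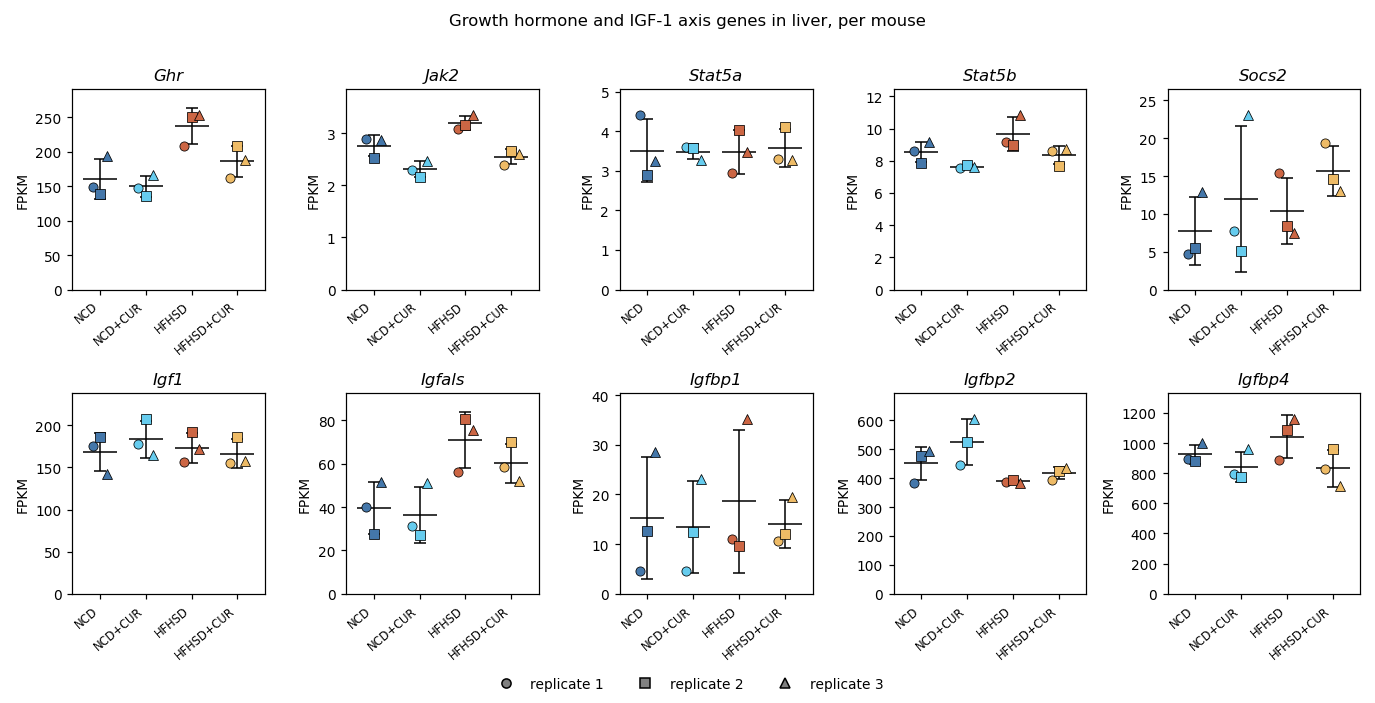
FPKM of the 10 growth hormone and IGF-1 axis genes in each mouse, by group, with the marker giving the replicate number and the bars giving the mean and SD of 3 mice. Ghr and Igfals were higher in HFHSD than in NCD without overlap, Igf1 lay between 143 and 207 FPKM throughout, and Igfbp1 was highest in replicate 3 of every group.

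HFHSD feeding was compared with NCD to ask how the axis differs in livers of aged mice on an obesogenic diet. Ghr rose 1.49-fold and was the only 1 of the 10 genes to pass the test. Igfals was higher by a larger factor, 1.81-fold, but did not pass. Igf1 itself was at 174 ± 17.7 FPKM in the HFHSD mice and at 168 ± 22.6 FPKM in the NCD mice (SD, n = 3). Among all tested genes, 4.61% changed in this comparison and 2.74% rose.

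Ghr was at 149, 139 and 194 FPKM in NCD replicates 1, 2 and 3 and at 208, 251 and 254 FPKM in HFHSD replicates 1, 2 and 3. The lowest HFHSD mouse was thus above the highest NCD mouse. The log2 fold change was 0.57 with a standard error of 0.15 (95% interval 0.25 to 0.90, adjusted p = 0.0734 by limma). The gene-level value does not separate the full receptor from the shorter transcript that in mice encodes the soluble growth hormone binding protein. The call depended on single libraries. The adjusted p of Ghr by limma was 0.234 without NCD replicate 1, 0.260 without NCD replicate 2, 0.1004 without HFHSD replicate 1, 0.216 when HFHSD replicate 2 was left out and 0.195 when replicate 3 was. It was 0.106 and 0.1003 without NCD+CUR replicates 1 and 2, which enter only through the shared estimate of the spread. Without both libraries labelled 107 weeks it was 0.0117, with a log2 fold change of 0.72.

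Igfals was at 40.03, 27.6 and 51.6 FPKM in NCD and at 56.1, 80.6 and 75.5 FPKM in HFHSD, in the order of the replicate numbers. These groups did not overlap either, and the NCD mouse closest to the HFHSD range was replicate 3, which is labelled 107 weeks. The log2 difference was 0.86 (95% interval 0.28 to 1.43, adjusted p = 0.114 by limma). Without the 107-week libraries it was 1.07 (adjusted p = 0.00773 by limma). Jak2 was the third gene whose groups did not overlap, with 2.899, 2.53 and 2.88 FPKM in NCD and 3.09, 3.17 and 3.36 FPKM in HFHSD. Its log2 difference was 0.21 (95% interval -0.06 to 0.48, adjusted p = 0.392 by limma). Groups that do not overlap were found for 22.8% of all tested genes in this comparison, and for 12.5% with HFHSD the higher group, as in these 3 of 10.

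For Igf1 the log2 difference between HFHSD and NCD was 0.05 (95% interval -0.25 to 0.36, adjusted p = 0.878 by limma). Igfbp2 was at 385, 477 and 492 FPKM in NCD and at 386, 395 and 385 FPKM in HFHSD. The HFHSD values were close to each other and at the lower end of the NCD values, with a log2 difference of -0.21 (adjusted p = 0.428 by limma). Stat5a had a log2 difference of 0.00 and Stat5b of 0.17. Stat5a and Stat5b are near-identical neighbors on chromosome 11, with 8626 bases between them, and reads that fit both could be split between them, so their separate values are uncertain. Igfbp1, Igfbp4 and Socs2 had log2 differences of 0.39, 0.17 and 0.49, all with intervals that include 0.

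With curcumin in both diets, HFHSD+CUR was compared with NCD+CUR to see whether the same diet difference was present. None of the 10 genes passed (0 of 10), while 3.61% of all tested genes did. At an unadjusted p under 0.05, 2 of the 10 passed, Igfals and Igfbp2, beside 17.5% of all tested genes. These groups share no mouse with the comparison above, although both comparisons use the same estimate of the spread.

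Igfals was at 31.3, 26.9 and 51.0 FPKM in NCD+CUR and at 58.6, 69.8 and 52.1 FPKM in HFHSD+CUR. The groups were separate, but only by a narrow margin between both replicates 3. The log2 difference was 0.77 (95% interval 0.19 to 1.34, adjusted p = 0.164 by limma), and it was 1.04 (adjusted p = 0.0135 by limma) without the 107-week libraries. Igfbp2 was at 444, 526 and 604 FPKM in NCD+CUR and at 394, 426 and 436 FPKM in HFHSD+CUR, again without overlap. Its log2 difference was -0.32 (95% interval -0.61 to -0.03, adjusted p = 0.243 by limma). Groups without overlap were seen for 22% of all tested genes here, against these 2 of 10. Ghr was at 147, 136 and 166 FPKM in NCD+CUR and at 162, 208 and 188 FPKM in HFHSD+CUR. Its groups overlapped, and its log2 difference was 0.31 (95% interval -0.02 to 0.64, adjusted p = 0.311 by limma).

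Ghr, Igfals and Igfbp2 each had an unadjusted p under 0.05 by limma in a diet comparison, with the same sign in both. Igfbp1, Jak2, Stat5b and Socs2 also kept their sign. The mean of both diet comparisons was tested as well, a comparison chosen after the data had been seen. It reuses the values above, so a gene that passes gains no independent support. In this comparison of 6 mice with 6, Igfals rose 1.76-fold, Ghr rose 1.36-fold and Igfbp2 fell, while 20.5% of all tested genes changed, 10.5% higher and 10% lower. Igfals ranged from 52.1 to 80.6 FPKM with a median of 64.2 in the 6 HFHSD mice, and from 26.9 to 51.6 FPKM with a median of 35.7 in the 6 NCD mice. The ranges did not overlap. The log2 fold change of Igfals was 0.81 with a standard error of 0.19 (95% interval 0.41 to 1.22, adjusted p = 0.0171 by limma).

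Ghr ranged from 162 to 254 FPKM with a median of 208 in the 6 HFHSD mice and from 136 to 194 FPKM with a median of 148 in the 6 NCD mice. Only replicate 3 of NCD and of NCD+CUR reached into the HFHSD range, which began with HFHSD+CUR replicate 1. The log2 fold change of Ghr was 0.44 with a standard error of 0.11 (95% interval 0.21 to 0.67, adjusted p = 0.0193 by limma). Ghr and Igfals stayed past the threshold in 28 of 28 alternative analyses, where the highest adjusted p by limma was 0.0582 for Ghr and 0.0509 for Igfals. All of these alternatives use the same libraries.

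Igfbp2 ranged from 385 to 436 FPKM in the 6 HFHSD mice and from 385 to 604 FPKM in the 6 NCD mice, so the ranges overlapped. The log2 difference of Igfbp2 was -0.26 (95% interval -0.47 to -0.06, adjusted p = 0.0853 by limma), and it passed in only 11 of 28 alternatives. Without both 107-week libraries its adjusted p by limma was 0.227. Of the 12 leave-one-out analyses, Igfbp2 passed in 3, those leaving out replicate 1 of NCD, replicate 1 of NCD+CUR or replicate 3 of HFHSD+CUR, and its adjusted p by limma ranged from 0.0638 to 0.164 over the 12.

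Igf1 did not pass over the same 12 mice. It ranged from 155 to 192 FPKM with a median of 164 in HFHSD mice and from 143 to 207 FPKM with a median of 176 in NCD mice, and the log2 difference was -0.04 (95% interval -0.26 to 0.17, adjusted p = 0.803 by limma). The interval leaves out a change of the size seen for Igfals. The transcript ratio of Igf1 to Ghr was 0.676 to 0.956 (median 0.801) in the 6 HFHSD mice and 0.737 to 1.52 (median 1.19) in the 6 NCD mice. The ratio of Igfals to Igf1 was 0.331 to 0.440 (median 0.376) in HFHSD mice and 0.130 to 0.362 (median 0.203) in NCD mice. Both ratios therefore overlapped between diets at their edges.

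**Figure D2:**
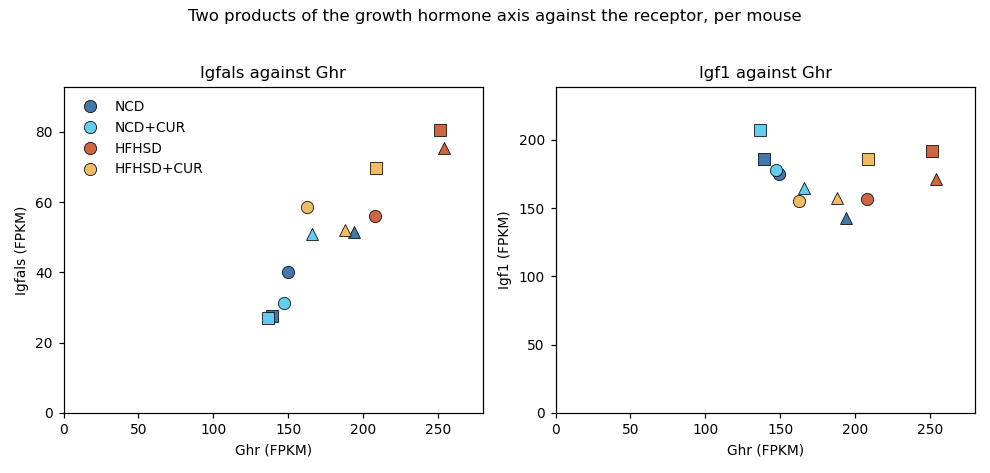
Igfals (left) and Igf1 (right) against Ghr in the 12 mice, all in FPKM, with color giving the group and circles, squares and triangles giving replicates 1, 2 and 3. Igfals was higher in mice with more Ghr (Pearson correlation 0.911 on the log2 scale), whereas Igf1 showed no such pattern (-0.20).

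Across the 12 libraries, Ghr and Igfals had the highest correlation of any pair among the 10 genes, 0.911 on the log2 scale, and 0.836 when each group was centered on its own mean. These values describe 12 libraries that share diets and replicate numbers. Ghr and Jak2 had a correlation of 0.822, and Jak2 and Stat5b one of 0.818, which was 0.357 within groups. Igf1 did not follow its upstream receptor, with a correlation of -0.20 with Ghr, and its lowest correlation was with Socs2 at -0.63. Igfbp1 and Igfbp2 had a correlation of 0.332 over the libraries and of 0.804 within groups. Among 6473 other genes averaging 5 FPKM or more, those most like Igf1 over the 12 libraries were Ubtd1 (0.892), Ak6 (0.884) and Hp (0.870), the last encoding the plasma protein haptoglobin. Those most like Socs2 were Cyp3a11 (0.887), a cytochrome P450 of drug metabolism, Gstt1 (0.885), a glutathione transferase, and Nme3 (0.879).

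**Figure D3:**
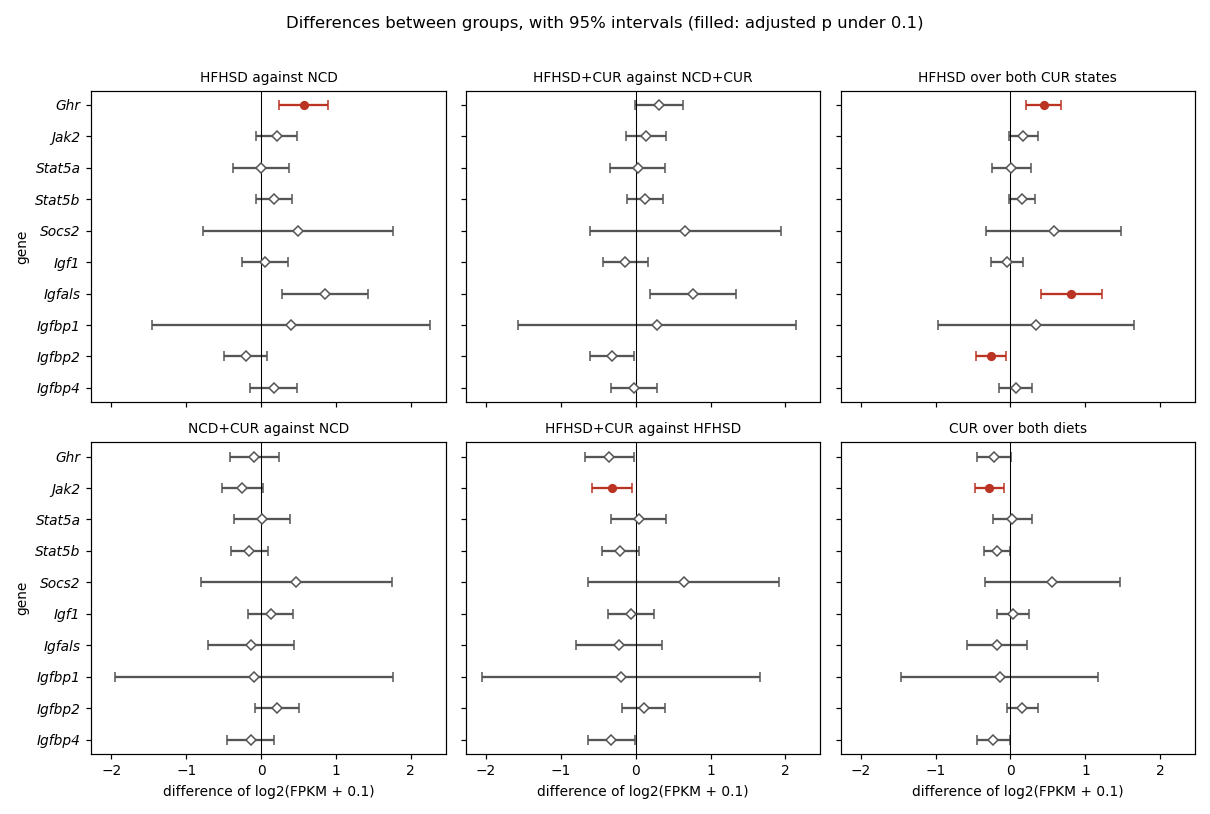
Difference of log2(FPKM + 0.1) between groups for the 10 genes in 6 comparisons, with 95% intervals, filled where the adjusted p by limma was under 0.1. Ghr, Igfals and Igfbp2 passed for diet over both curcumin states, and Jak2 passed for curcumin on HFHSD and over both diets.

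Markers of some other cell types moved with diet as well. Among all tested genes, 4.61% changed in HFHSD against NCD, and 10% fell over both curcumin states. Of 10 endothelial markers, 6 fell in HFHSD against NCD and 0 rose, and 9 of 10 fell over both curcumin states. Their summed level was 78.3 to 84.0 FPKM in NCD, 72.4 to 99.9 in NCD+CUR, 31.9 to 49.7 in HFHSD and 36.0 to 90.2 in HFHSD+CUR, with no defining marker at 0. Of 10 stellate cell and fibroblast markers, 2 fell in HFHSD against NCD, and their sum was 161 to 205 FPKM in NCD and 98.0 to 141 FPKM in HFHSD. Of the 11 hepatocyte markers tested, 1 fell and 0 rose, and their sum was 84335 to 96298 FPKM in NCD and 80310 to 98357 FPKM in HFHSD. In the same comparison, 0 of 9 Kupffer cell and macrophage, 0 of 5 B and T cell and 0 of 4 cholangiocyte markers tested changed. Over both curcumin states, where 10.5% of all tested genes rose, 5 of 10 stellate cell and fibroblast markers fell and 0 rose. Of the 11 hepatocyte markers, 3 fell and 1 rose there, and 1 of 4 cholangiocyte markers fell. Of the Kupffer cell and macrophage markers and of the B and T cell markers, 0 changed. The part of the marker shifts in the values of Ghr, Igfals and Igfbp2 was not tested.

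The other genes of the pathway were described in fixed lists, beginning with 19 other regulators of the growth hormone receptor and of JAK-STAT signaling, 15 of which were expressed highly enough to be tested. In HFHSD against NCD, 2 of the 15 rose, Cish among them, and 0 fell, where 2.74% of all tested genes rose. The median log2 difference of the 15 genes was 0.11, beside 0.03 over all tested genes. In HFHSD+CUR against NCD+CUR, 1 of the 15 rose, again Cish, and 0 fell, where 3.61% of all tested genes changed. The median was 0.09 beside 0.01 over all tested genes.

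Cish, a suppressor of cytokine signaling induced by STAT5, was at 3.71, 3.597 and 4.296 FPKM in NCD and at 15.2, 8.21 and 10.2 FPKM in HFHSD. The log2 fold change was 1.47 with a standard error of 0.27 (adjusted p = 0.0259 by limma). With curcumin it was at 4.57, 3.22 and 3.47 FPKM in NCD+CUR and at 16.8, 8.37 and 9.07 FPKM in HFHSD+CUR, a log2 fold change of 1.52 with a standard error of 0.27 (adjusted p = 0.0413 by limma). Each of the 6 HFHSD mice was thus above each of the 6 NCD mice, by a wider margin than for Igfals. The call of Cish was lost without NCD replicate 1 (adjusted p = 0.118 by limma) or replicate 2 (0.113), and, with curcumin, without NCD+CUR replicate 1 (0.136) or replicate 2 (0.154).

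Socs2, a related suppressor that is likewise a STAT5 target, did not pass in either diet comparison. It was at 4.75, 5.51 and 12.9 FPKM in NCD, 7.68, 5.14 and 23.1 FPKM in NCD+CUR, 15.4, 8.38 and 7.44 FPKM in HFHSD and 19.4, 14.7 and 12.99 FPKM in HFHSD+CUR. The highest chow-fed mice were both replicates 3, and the groups overlapped. The log2 difference of Socs2 was 0.49 (95% interval -0.78 to 1.77) without and 0.66 (95% interval -0.61 to 1.94) with curcumin. In the chow groups both 107-week mice had the highest Socs2, and without them Socs2 passed the test for diet over both curcumin states, as it did with age as a covariate. Socs3, a suppressor induced mainly by STAT3, was at 3.45 to 6.04 FPKM in HFHSD and 4.98 to 11.4 FPKM in NCD, with a log2 difference of -0.51 (adjusted p = 0.516 by limma).

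Among 18 other IGF system genes, 7 were tested and 0 of the 7 changed in either diet comparison, beside 4.61% and 3.61% of all tested genes. At an unadjusted p under 0.05 there were also 0. Igf1r, the IGF-1 receptor, was listed at 0.121 to 0.378 FPKM over the 12 mice and was under the minimum level. Insr, the insulin receptor, was at 14.8 ± 2.19 FPKM in the NCD mice and 16.05 ± 1.77 FPKM in the HFHSD mice (SD, n = 3). Igfbp3, whose product forms the circulating complex with IGF-1 and the acid-labile subunit and which in liver is made largely outside hepatocytes, was at 6.98 ± 1.73 FPKM in the NCD mice and 6.93 ± 5.001 FPKM in the HFHSD mice (SD, n = 3). Its values in the HFHSD mice were 12.7, 3.45 and 4.68 FPKM, so replicate 1 stood apart.

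The sex-biased genes of liver are a readout of the pattern of growth hormone pulses, and both kinds were followed. Of 15 male-biased genes, 14 were tested, and 1 rose in each diet comparison, Cyp4a12a, a fatty acid hydroxylase, while 0 fell. Among all tested genes, 4.61% changed without and 3.61% with curcumin. Cyp4a12a was at 15.1, 30.7 and 18.6 FPKM in NCD and at 47.6, 58.1 and 41.4 FPKM in HFHSD, without overlap. It rose by 1.24 on the log2 scale, with SE 0.25 and an adjusted p of 0.0328 by limma. With curcumin it was higher in HFHSD+CUR, at 48.5 ± 1.26 FPKM against 24.2 ± 7.38 FPKM in NCD+CUR (SD, n = 3, adjusted p = 0.0795 by limma). The first of these calls was lost without NCD replicate 1 (adjusted p = 0.136 by limma) or HFHSD replicate 2 (0.126), and the other was lost in 7 of the 12 leave-one-out analyses (adjusted p of 0.101 to 0.302). Over both curcumin states, 1 of the 14 rose, again Cyp4a12a, and 1 fell, the complement gene C6 (log2 difference -0.36, adjusted p = 0.0650 by limma), named after its value had been seen. There, 10.5% of all tested genes rose and 10% fell. The median log2 difference of the 14 genes was 0.03 in HFHSD against NCD, beside 0.03 over all tested genes.

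Of 15 female-biased genes, 14 were matched and 6 reached the minimum level. In each diet comparison 0 of the 6 passed, beside 4.61% of all tested genes without and 3.61% with curcumin. In each, 2 of the 6 had an unadjusted p under 0.05 by limma. With curcumin, 17.5% of all tested genes did, while the share without curcumin is not given here. All 6 had a positive difference, with medians of 1.94 without and 1.90 with curcumin, beside 0.03 and 0.01 over all tested genes. Over both curcumin states, 3 of the 6 rose, beside 10.5% of all tested genes. They were Cyp2b9, Cyp2b13 and Cyp2a4, cytochrome P450 genes named here after their values had been seen. Cyp2b9 was at 4.46, 2.00 and 14.9 FPKM in NCD and at 67.3, 30.0 and 17.2 FPKM in HFHSD. In the curcumin groups it was at 2.02, 2.55 and 9.91 FPKM on chow and at 63.0, 22.9 and 14.6 FPKM on HFHSD. The diets did not overlap except that HFHSD+CUR replicate 3 was just under NCD replicate 3, and the log2 fold change was 2.75 (adjusted p = 0.0313 by limma). Cyp2 genes belong to families of close paralogs, so reads may have been split between copies. Prlr, the prolactin receptor, also rose over both curcumin states, with a log2 difference of 0.73 and adjusted p = 0.0770 by limma, as did Cish and Sh2b3 of the same list.

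**Figure D4:**
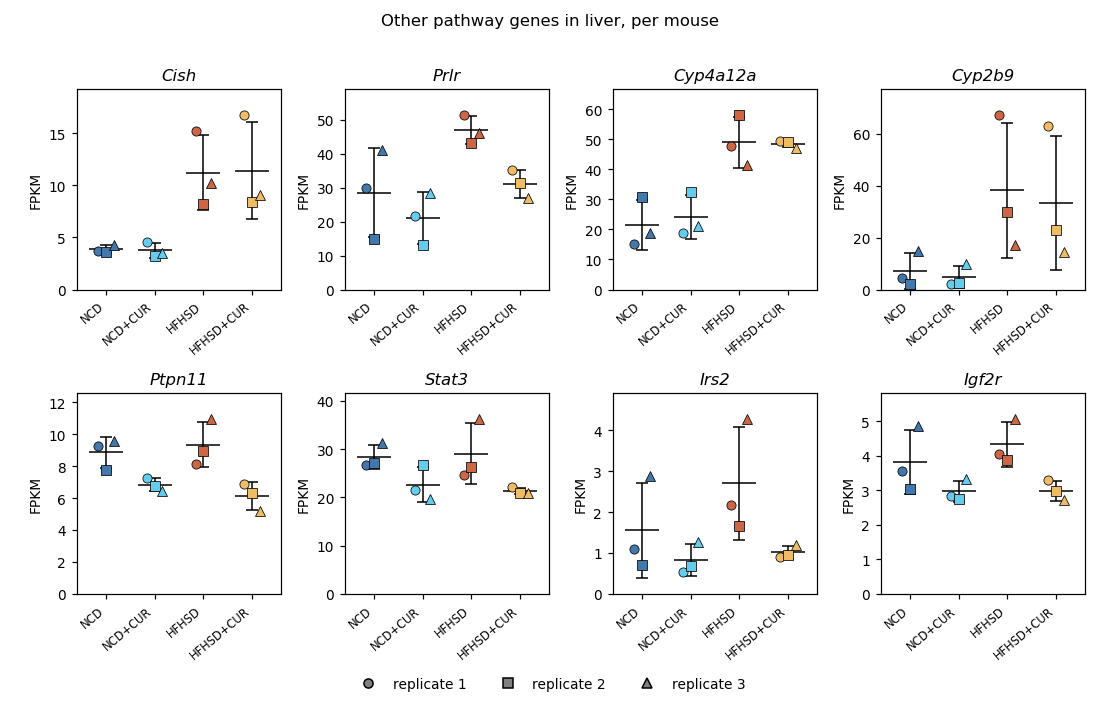
FPKM of 8 other pathway genes in each mouse, by group, with the marker giving the replicate number and the bars giving the mean and SD of 3 mice. Cish lay between 3.22 and 4.57 FPKM in the 6 chow-fed mice and between 8.21 and 16.8 FPKM in the 6 HFHSD mice, and Ptpn11 was lower with curcumin on both diets.

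Curcumin was added to HFHSD to ask whether it alters the liver of obese aged mice. Jak2 fell in HFHSD+CUR against HFHSD and was the only 1 of the 10 genes to pass, in a comparison where 30.3% of all tested genes changed and 17.2% fell. Ghr and Igfbp4 were lower at an unadjusted p under 0.05, which made 3 of the 10 in all, beside 20.5% of tested genes that were lower by that measure. Igf1 was at 166 ± 17.2 FPKM (SD, n = 3) with curcumin and 174 ± 17.7 FPKM (SD, n = 3) without. The share of the axis genes that changed was thus no larger than that of genes in general.

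Jak2 was at 3.09, 3.17 and 3.36 FPKM in HFHSD and at 2.39, 2.66 and 2.61 FPKM in HFHSD+CUR. The groups were apart and each was tight. The log2 fold change was -0.32 with a standard error of 0.13 (95% interval -0.59 to -0.05, adjusted p = 0.0868 by limma). The call did not hold in 17 of 28 alternatives, among them 9 leave-one-out analyses. Leaving out HFHSD replicate 1, 2 or 3 ended it (adjusted p of 0.128, 0.165 and 0.217 by limma), as did leaving out HFHSD+CUR replicate 1 or 3 (0.196 and 0.152), NCD replicate 1 (0.107), or any 1 replicate of NCD+CUR (0.109, 0.107 and 0.103). Once trends with GC content and transcript length had been taken out of every library, the log2 difference of Jak2 was -0.10 (adjusted p = 0.521 by limma).

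Ghr was at 208, 251 and 254 FPKM in HFHSD and at 162, 208 and 188 FPKM in HFHSD+CUR, where only replicate 2 reached the lowest HFHSD mouse. The log2 difference was -0.35 (95% interval -0.68 to -0.03, adjusted p = 0.112 by limma). Igfbp4 was at 887, 1083 and 1159 FPKM in HFHSD and at 827, 957 and 714 FPKM in HFHSD+CUR, with a log2 difference of -0.33 (95% interval -0.64 to -0.01, adjusted p = 0.124 by limma). Stat5b was at 9.15, 8.99 and 10.9 FPKM in HFHSD and at 8.62, 7.70 and 8.76 FPKM in HFHSD+CUR, also without overlap (log2 difference -0.20, adjusted p = 0.210 by limma). Groups without overlap, found here for Jak2 and Stat5b, were seen for 40.7% of all tested genes, and for 22.8% with the curcumin group lower. Igfals had a log2 difference of -0.23 (95% interval -0.80 to 0.35) and Socs2 one of 0.64 (95% interval -0.63 to 1.92).

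Within each diet, libraries that share a replicate number deviated together, so the comparison was also made within pairs, with the replicate number as a block. With this block, 4 of the 10 genes changed in HFHSD+CUR against HFHSD, where 45.7% of all genes changed. Ghr fell (adjusted p = 0.0146 by limma), Igfbp4 fell (0.0484), Jak2 fell (0.0652) and Socs2 rose (0.0167). In the pairs, Socs2 was higher with curcumin in 3 of 3 HFHSD mice and Ghr, Igfbp4 and Jak2 were lower in 3 of 3. Such pair counts were not made for all tested genes. With the GC and length trends also removed, the log2 difference of Ghr was -0.16 (adjusted p = 0.125 by limma) and that of Igfbp2 was -0.21 (adjusted p = 0.0599), against 0.11 for Igfbp2 before the removal. Igfbp4 (-0.38, adjusted p = 0.0213 by limma) and Socs2 (0.81, adjusted p = 0.0146) stayed past the threshold, and Igfals passed as well (-0.37, adjusted p = 0.0261). Jak2 no longer passed (-0.10, adjusted p = 0.490 by limma).

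**Figure D5:**
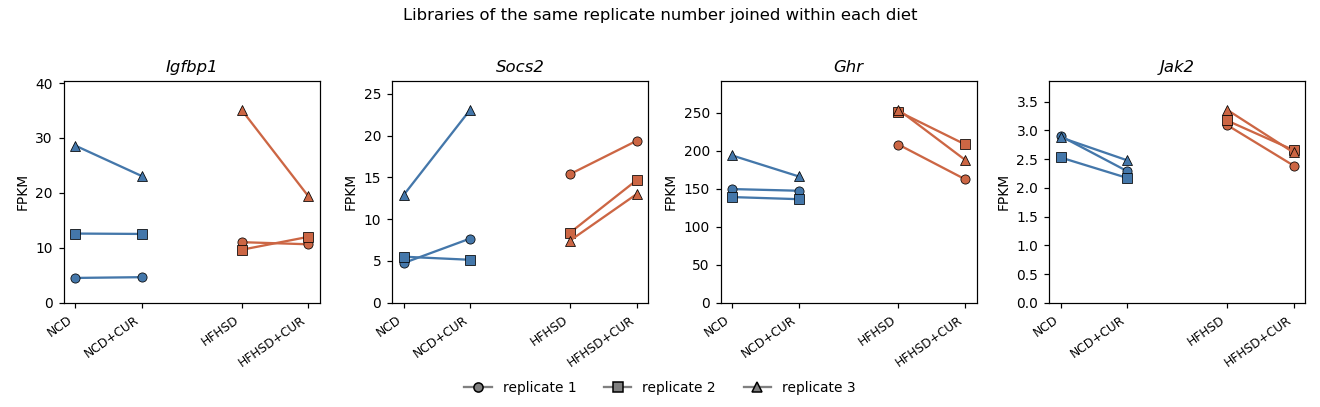
FPKM of Igfbp1, Socs2, Ghr and Jak2, with libraries of the same replicate number joined within each diet (blue, chow; red, HFHSD). Ghr and Jak2 were lower with curcumin in 6 of 6 pairs and Socs2 was higher in 5 of 6, while Igfbp1 followed the replicate number on chow. Pair counts over all tested genes were not made.

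On chow, 0 of the 10 genes changed with curcumin by limma, as did 0% of all tested genes. At an unadjusted p under 0.05 there were 0 of the 10, beside 14% of tested genes, and with the replicate block there were also 0 of the 10, beside 8.16%. Jak2 was at 2.899, 2.53 and 2.88 FPKM in NCD and at 2.29, 2.17 and 2.48 FPKM in NCD+CUR, without overlap (log2 difference -0.25, 95% interval -0.52 to 0.02, adjusted p = 0.387 by limma). Stat5b was at 8.61, 7.88 and 9.17 FPKM in NCD and at 7.57, 7.77 and 7.60 FPKM in NCD+CUR, also without overlap (log2 difference -0.16, adjusted p = 0.535 by limma). Such separation was found for 19.6% of all tested genes, and for 10.1% with the curcumin group lower, as in these 2 of 10. Igf1 had a log2 difference of 0.13 (95% interval -0.18 to 0.43), Ghr one of -0.09 (95% interval -0.42 to 0.24) and Igfbp2 one of 0.21 (95% interval -0.07 to 0.50), the last 2 turning to 0.03 and -0.03 when GC and length trends were removed.

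Averaged over both diets, Jak2 fell with curcumin and the other 9 genes did not pass, where 37.9% of all tested genes changed and 20.8% fell. The log2 fold change of Jak2 was -0.28 with a standard error of 0.09 (95% interval -0.47 to -0.09, adjusted p = 0.0308 by limma). It was lower with curcumin in 6 of 6 pairs of the same number, at 0.772 to 0.861 of the level without. Jak2 kept its call in 25 of 27 alternatives and lost it when GC content and transcript length were taken out (-0.11, adjusted p = 0.316 by limma) and when this was done with the replicate block (-0.11, adjusted p = 0.299). Ghr, Igfbp4 and Stat5b were also lower in 6 of 6 pairs, and Igfbp2 was higher in 6 of 6, at 1.02 to 1.23 times the level without curcumin, although its difference turned negative when GC and length trends were removed. How many of all tested genes went the same way in 6 of 6 pairs was not counted, so these pair counts do not set the genes apart.

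With the replicate block, 6 of the 10 genes changed with curcumin over both diets, beside 52.8% of all genes. Socs2 rose (log2 difference 0.56, adjusted p = 0.00516 by limma) and Igfbp2 rose (0.16, adjusted p = 0.0640), the latter with a direction that turned under the removal of GC and length trends. Ghr fell (log2 difference -0.22, adjusted p = 0.0202 by limma), Jak2 fell (0.0234), Igfbp4 fell (0.0411) and Stat5b fell (0.0654). When GC content and transcript length were also taken out, the direction of Igfbp2 turned to a log2 difference of -0.12 (adjusted p = 0.0995 by limma), Ghr no longer passed (-0.07, adjusted p = 0.346), and Igf1 was higher (0.24, adjusted p = 0.0126) and Igfals lower (-0.30, adjusted p = 0.0124). With the block and the number of mapped reads as a covariate, only Jak2 and Socs2 passed of the 10.

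The difference between the curcumin effects on HFHSD and on chow was tested directly. By limma, 0 of the 10 genes passed, as did 0% of all tested genes, and at an unadjusted p under 0.05 there were 0 of the 10 beside 1.38% of all genes. For Ghr the effect on HFHSD minus the effect on chow was -0.26 on the log2 scale (95% interval -0.73 to 0.20), and for Jak2 it was -0.07 (95% interval -0.45 to 0.31). The curcumin differences of the 2 diets were thus not shown to differ for any of the 10 genes.

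Igfbp1 gave the clearest pattern by replicate number. It was at 4.52, 12.6 and 28.6 FPKM in NCD and at 4.66, 12.5 and 23.1 FPKM in NCD+CUR, so on chow replicates 1 and 2 had nearly equal levels with and without curcumin, and replicate 3 was lower with it. On HFHSD it was at 11.03, 9.65 and 35.1 FPKM without and at 10.6, 11.99 and 19.5 FPKM with curcumin. Replicate 3 was highest in each group, at 19.5 to 35.1 FPKM, while replicates 1 and 2 lay between 4.52 and 12.6 FPKM. What a number stands for is given neither by the labels nor in the methods, and 2 of the 4 replicates 3 carry the higher age label. Igf1 was highest in replicate 2 of each group, at 186 FPKM in NCD, 207 in NCD+CUR, 192 in HFHSD and 186 in HFHSD+CUR. These values are a description of the libraries.

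Among the other regulators of JAK-STAT signaling, 0 rose and 2 fell with curcumin on HFHSD, Ptpn11 and Stat3. Of all tested genes, 17.2% fell. The median log2 difference was -0.09 over the 15 tested beside -0.03 over all genes. Ptpn11, the phosphatase SHP-2 of receptor signaling, was at 8.16, 8.97 and 10.95 FPKM in HFHSD and at 6.90, 6.31 and 5.20 FPKM in HFHSD+CUR. The groups were well apart. The log2 difference of Ptpn11 was -0.60, with SE 0.14 and an adjusted p of 0.0167 by limma. Ptpn11 passed in 29 of 29 alternatives. On chow it was at 9.26, 7.74 and 9.60 FPKM without and at 7.28, 6.79 and 6.45 FPKM with curcumin, and over both diets it fell by 0.48 (adjusted p = 0.00633 by limma).

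Stat3, which carries the signals of interleukin-6, was at 24.6, 26.3 and 36.2 FPKM in HFHSD and at 22.1, 20.8 and 20.9 FPKM in HFHSD+CUR (log2 fold change -0.43, adjusted p = 0.0686 by limma). HFHSD replicate 3 was the highest, and without it the adjusted p was 0.262. The call was also lost without HFHSD+CUR replicate 1 (0.103), replicate 2 (0.116) or replicate 3 (0.172). Over both diets 0 of the 15 rose and 4 fell, beside 20.8% of all tested genes that fell. Jak1 was among the 4, but it passed in only 16 of 28 alternatives. With the replicate block, 3 of the 15 rose and 5 fell on HFHSD, and 4 rose and 6 fell over both diets, beside 45.7% and 52.8% of all tested genes. The genes that rose with the block on HFHSD were Socs3, Sh2b1 and Tyk2.

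Of the 7 other IGF system genes, 0 rose and 2 fell with curcumin on HFHSD, Igf2r and Irs2. Among all tested genes, 17.2% fell. Igf2r, a receptor that takes up IGF-2, was at 4.04, 3.87 and 5.06 FPKM in HFHSD and at 3.29, 2.96 and 2.70 FPKM in HFHSD+CUR (log2 fold change -0.52, standard error 0.17, adjusted p = 0.0539 by limma). Its call was lost without HFHSD replicate 3 (0.188) or HFHSD+CUR replicate 3 (0.178). Irs2, a substrate of the insulin and IGF-1 receptors, was at 2.17, 1.66 and 4.27 FPKM in HFHSD and at 0.893, 0.937 and 1.20 FPKM in HFHSD+CUR, without overlap. Its log2 fold change was -1.23 with a standard error of 0.48 (adjusted p = 0.0892 by limma), and the call was lost in 7 of 12 leave-one-out analyses, with an adjusted p of 0.108 to 0.269. The same 2 genes fell over both diets (adjusted p of 0.0231 for Igf2r and 0.0531 for Irs2 by limma). There, 20.8% of all tested genes fell. Insr had a log2 difference of -0.07 on HFHSD and Igfbp3 one of 0.50, and neither passed.

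With curcumin on HFHSD, where 17.2% of all tested genes fell, 0 of the 14 male-biased genes rose and 1 fell. It was Cyp7b1, an oxysterol hydroxylase, which was at 50.4 ± 2.55 FPKM with and 68.8 ± 10.4 FPKM without curcumin (SD, n = 3, log2 fold change -0.44, adjusted p = 0.0831 by limma). The groups did not overlap, but the call was lost when any of HFHSD replicates 2 and 3 or HFHSD+CUR replicates 1, 2 and 3 was left out (adjusted p of 0.122 to 0.260). With the replicate block, 7 of the 14 fell and 0 rose on HFHSD, where 45.7% of all tested genes changed in either direction. They were C6, Cyp7b1, Hsd3b5, Mup12, Mup7, Serpina1e and Slco1a1, and Mup and Serpina1 genes have near-identical copies whose reads may have been split. Of the 6 female-biased genes, 0 changed, and 1 fell with the block, Acot3. The median log2 difference with curcumin on HFHSD was -0.21 for the male-biased and -0.28 for the female-biased genes, beside -0.03 over all tested genes. Regardless of sign, the median size of the difference over all tested genes was 0.27.

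Beside these curcumin comparisons on HFHSD, 3 of 5 tested markers of B and T cells rose, 2 of 10 endothelial markers rose and 1 rose and 2 fell of 11 hepatocyte markers. In addition, 1 of 10 stellate cell and fibroblast markers (Des) and 1 of 4 cholangiocyte markers (Krt19) rose. Of 9 tested Kupffer cell and macrophage markers, 0 changed. Among all tested genes, 30.3% changed in this comparison. The summed B and T cell markers were at 4.80 to 12.5 FPKM in HFHSD and 12.4 to 17.1 FPKM in HFHSD+CUR. RNAs that poly(A) selection should remove summed to 83.4 to 176 FPKM in HFHSD and to 131 to 16623 FPKM in HFHSD+CUR, where replicate 1 was highest through Rn45s, the ribosomal RNA precursor. The mean correlation with the remaining libraries was lowest for HFHSD+CUR replicate 3, at 0.952. The part of these differences in the values of Jak2, Ghr, Igfbp4 and Socs2 was not tested.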

How the data were processed

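Liver poly(A) RNA of 12 mice was sequenced from stranded libraries. The deposited FPKM values were made by the authors with TopHat2 2.0.13 on mm10 and Cuffdiff 2.2.1 (versions from the submitters' processing notes, while the paper's methods name another Cufflinks release), which scale fragments by transcript length and library size. Columns of the authors' own comparisons (fold changes, p-values and false discovery rates) and their pathway and Gene Ontology tables were not used.

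Values were analysed as log2(FPKM + 0.1) in limma 3.58.1 (R 4.3.3), with a variance trend and robust moderation, in one model of the 4 groups. Genes averaging 1 FPKM or more were kept, 10545 of 23997, and those with an adjusted p under 0.1 (Benjamini-Hochberg, over all kept genes) are said to have changed. Fold changes are on the log2(FPKM + 0.1) scale and understate the change of low genes. An exact permutation test of 3 against 3 cannot give a p under 0.1. Replicates are separate mice of a group. The model was tested on simulated data with independent noise, without the pairing of libraries seen here. That test does not bear on the calls of single genes.

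The 10 genes are named whatever their values. From 4 lists of other pathway genes, up to 4 genes with the smallest p in each comparison among those past the threshold are named, as are Insr, Igf1r, Igfbp3, Socs3 and Cish, and the 3 genes most like Igf1 and the 3 most like Socs2. Genes named from the comparison over both curcumin states, or from the replicate block alone, lie outside that rule. A gene of the JAK-STAT list that enters its counts and medians is not reported here. Members and lists were chosen with earlier results of these data known.

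No pair of libraries was identical (0 pairs), correlations between libraries were 0.934 to 0.986, and 10192 to 10721 genes reached 1 FPKM per library. Whether replicate numbers pair libraries was checked from the correlation of deviations from group means for libraries of the same number. On chow, with and without curcumin, these were 0.339, 0.3001 and 0.527. On HFHSD they were 0.156, 0.350 and 0.178. Across diets they were 0.00341, 0.0428 and 0.236 without curcumin and 0.0189, -0.0721 and 0.0990 with it. The 0.236 of replicate 3 exceeded the 0.156 and 0.178 within HFHSD. The number was used as a block within each diet for curcumin comparisons. For diet comparisons, a block by number across the 4 groups was fitted only among the alternatives. The pairing comes from the data and not from a label.

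Alternatives were other pseudocounts (1 and 0.01), no filter or a mean of at least 5 FPKM, quantile normalization, equal medians, the block, age or mapped reads as a covariate, removal of GC content and transcript length trends (loess, span 0.4, for 10077 genes), array weights, plain moderation, only the groups compared, an adjusted p under 0.05 and leaving out each library. Leaving out both 107-week libraries and the comparison of diets over both curcumin states were added after seeing the data.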

Additional observations from a re-analysis of the deposited data

How the results depend on the processing

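Of the 10 genes, the number that changed was recomputed under 29 alternatives. For diet over both curcumin states it stayed at 2 or 3 in 28 of 28, with Ghr and Igfals called each time. Socs2 took the place of Igfbp2 with age as a covariate, array weights, or without NCD+CUR replicate 3 or the 107-week libraries. For the difference between curcumin effects the number stayed at 0 in 28 of 28. For NCD+CUR against NCD it was 2 with array weights and otherwise 0. For HFHSD+CUR against HFHSD (1 gene) it was 0 with no filter, a mean of at least 5 FPKM, equal medians, mapped reads as a covariate, only the groups compared or an adjusted p under 0.05, 2 with array weights, 3 with age as a covariate, and 4 with the replicate block alone or with GC and length removal or mapped reads. For HFHSD against NCD (1 gene) it was 0 with no filter, quantile normalization, only the groups compared or an adjusted p under 0.05, 2 with array weights or with the replicate block, alone or with GC and length removal, and 3 with age as a covariate or without the 107-week libraries. For HFHSD+CUR against NCD+CUR (0 genes) it was 3 with age, 2 without the 107-week libraries and 1 with array weights. For curcumin over both diets (1 gene) it was 0 with a mean of at least 5 FPKM, 2 with quantile normalization, 5 with age or array weights, 6 with the replicate block alone or with GC and length removal, and 2 with the block and mapped reads. With GC and length removal alone, the 1 gene was Igfbp4 in place of Jak2, on HFHSD and over both diets. For curcumin on HFHSD without the 107-week libraries, the 1 gene was Ghr. Leaving out each library in turn gave 0 to 0, 0 to 3, 0 to 2, 0 to 1, 1 to 4, 0 to 0 and 2 to 3 genes for NCD+CUR against NCD, HFHSD+CUR against HFHSD, HFHSD against NCD, HFHSD+CUR against NCD+CUR, curcumin over both diets, the difference between curcumin effects and diet over both curcumin states. The cause of these shifts was not tested, beyond the fewer samples or genes that some alternatives hold, such as the mean of at least 5 FPKM, which drops Jak2. A group left with 2 libraries was assumed to vary like the others. Of all tested genes, the share that changed with curcumin over both diets was 52.8% with the replicate block against 37.9% without. Between diets, correlations of deviations for libraries of the same number were -0.0721 to 0.236, and the block entered the diet results only among the alternatives. Among the 13 single-gene differences with an unadjusted p under 0.05, picked by p in these same libraries, 0 of 369 values under alternatives had the other sign. For the 57 other single-gene differences, 117 of 1617 values had the other sign and 31 passed the threshold. FPKM values give no depth per gene, which limits what can be said of Jak2 and Stat5a, the least abundant of the 10.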
